A study of Triticum turgidum subsp. durum with 24 samples.

Results

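A set of 100 genes of the durum wheat endosperm with their highest level at 20 days post anthesis (dpa) is described here, chosen from the 66559 canonical transcripts measured. A gene qualified when the median of its 3 replicates, in TPM (transcripts per 1000000, a level scaled by transcript length and to that total in each library), was highest at 20 dpa and at least 5 TPM there. This held for 461 genes, and 455 were left after genes on the study's list of starch-related genes were set aside. The 455 were ranked by the log2 ratio of the 20 dpa median to the highest median of 13, 15 and 18 dpa, with 0.1 TPM added to both, and the first 100 were taken. The peak at 20 dpa and its size over 13 to 18 dpa are therefore how the genes were chosen and are given as a description without a test. All 100 passed the minimum of at least 10 estimated counts in at least 3 libraries.

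The endosperm is the tissue of the cereal grain that stores starch and protein. After an early phase of division and cell formation it fills with starch and storage protein. Late in filling, the cells of the starchy endosperm lose water and die, while the outer aleurone layer stays alive.

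Endosperm was dissected from wild-type (WT) grains of the durum wheat variety Kronos at 6, 8, 10, 13, 15, 18, 20 and 30 dpa, with 3 replicates per timepoint and 24 libraries in all. Plants were untreated and grown in controlled environment rooms, and every library shares this variety and genotype. Replicates were pools, of 6 endosperms for the timepoints up to 10 dpa, of 4 for those of 13 to 18 dpa and of 3 for the last pair. By the paper, a plant gave spikes to more than 1 timepoint, and the labels do not say which libraries share a plant. Poly-A RNA was sequenced and assigned to transcripts with kallisto, which divides reads shared by near-identical copies, which makes the separate levels of such copies on the A and B genomes uncertain.

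The libraries held 56180606 to 115800050 estimated counts. The 18 starch genes used as markers of starchy endosperm, such as those of ADP-glucose pyrophosphorylase, which makes the substrate of starch synthesis, were at 5 TPM or more in all 24 libraries. GBSSII-B1, the starch synthase of pericarp and vegetative tissue, ranged from 0.208 to 14.5 TPM and was under 1 TPM in 3 libraries. Several libraries stood apart from the others of their timepoint in the 100 genes, above all 20 dpa replicate 1 and 30 dpa replicate 2, and results that rest on them are given with and without them. In bulk samples such as these, more cells of a type and more RNA per cell cannot be told apart.

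The peak at 20 dpa was carried by replicates 2 and 3 alone. The summed level of the 100 genes was 6635 TPM in 20 dpa replicate 2 and 5995 TPM in 20 dpa replicate 3, against 334 TPM in 20 dpa replicate 1. The sum in replicate 1 lay among those of the 6 to 18 dpa libraries, which ranged, with it, from 132 to 839 TPM with a median of 332 over 19 libraries. At 30 dpa the sum was 1651 TPM in replicate 1, 5338 TPM in replicate 2 and 1027 TPM in replicate 3. Thus by summed level 3 of the 24 libraries, 20 dpa replicates 2 and 3 and 30 dpa replicate 2, held the genes high. The remaining 30 dpa libraries held an intermediate sum. The median gene was at 27.0 and 23.4 TPM in 20 dpa replicates 2 and 3 and at 17.3 TPM in 30 dpa replicate 2. It was at 3.01 and 2.89 TPM in 30 dpa replicates 1 and 3, near the 2.47 TPM of 13 dpa replicate 3 and the 2.49 TPM of 15 dpa replicate 2.

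**Figure D1:**
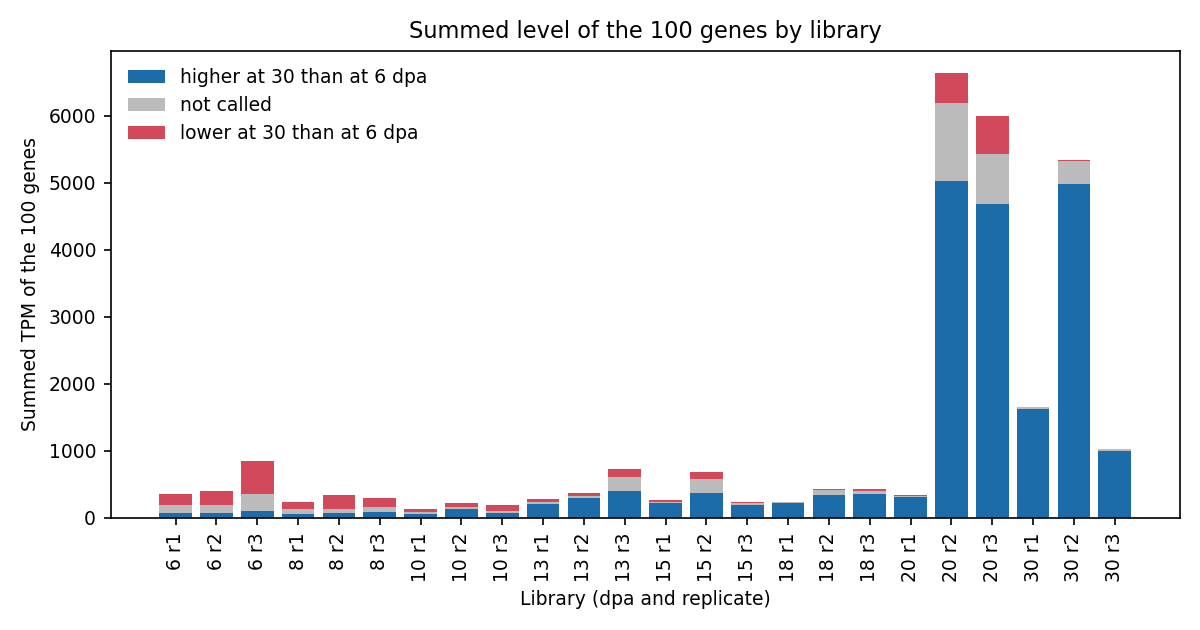
Summed TPM of the 100 genes (y axis) in each of the 24 libraries (x axis, dpa and replicate), with bars divided by the edgeR call of 30 against 6 dpa: 73 genes higher, 23 not called and 4 lower. The bars reach 6635 and 5995 TPM in 20 dpa replicates 2 and 3 and 5338 TPM in 30 dpa replicate 2, and 334 TPM in 20 dpa replicate 1.

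Every one of the 100 genes was at least 2-fold higher in both 20 dpa replicates 2 and 3 than in replicate 1 (on TPM + 0.1). The same held for 5.42% of the 10095 genes with a 20 dpa median of at least 5 TPM, which include the 100. Since the median of 3 values lies with the pair of high libraries, the rule favours such genes, and the count is no test. Among the 355 genes that qualified but ranked below the first 100, it held for 75 (21.1%). The lower of replicates 2 and 3 exceeded replicate 1 by 3.23-fold to 824-fold, with a median of 26.3-fold, and by at least 10-fold for 71 genes. In 20 dpa replicate 1, 59 genes were under 1 TPM, 14 were listed at 0 and 14 reached 5 TPM. Replicates 2 and 3 lay within 2-fold of each other for 84 genes. The 18 starchy endosperm markers behaved otherwise, as 16 of them were highest in replicate 1, and they summed to 4893 and 3736 TPM in replicates 2 and 3, against 5517 TPM in replicate 1. Of the 60 genes on the starch-related list with at least 5 TPM at 20 dpa, 0 were 2-fold higher in both replicates 2 and 3 than in replicate 1. What set replicate 1 apart was not tested.

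**Figure D2:**
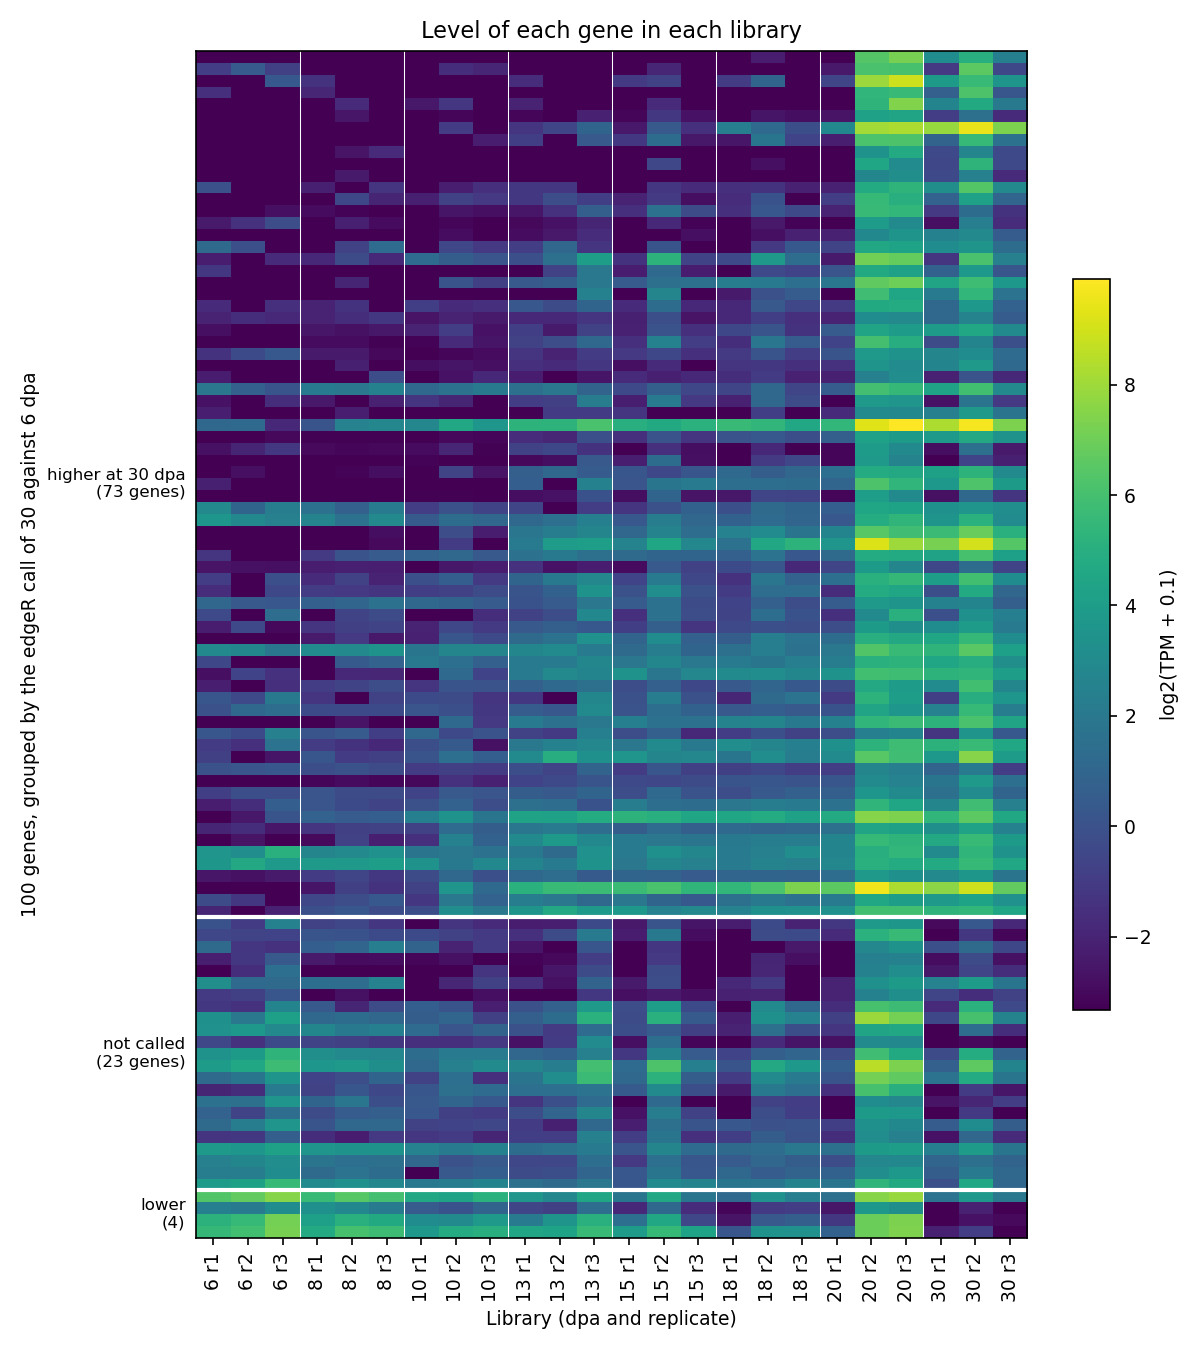
Level of each of the 100 genes, as log2(TPM + 0.1), in the 24 libraries (x axis, dpa and replicate). Genes are grouped by the edgeR call of 30 against 6 dpa (73 higher, 23 not called, 4 lower) and ordered within groups by the rank of the rule. Columns 20 dpa replicates 2 and 3 are bright throughout, 20 dpa replicate 1 is not, and 30 dpa replicate 2 is bright for most of the 73 genes.

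The largest rank ratio, 9.69 on the log2 scale, was that of TRITD1Bv1G135990 (Svevo v1 assembly, chromosome 1B from 418298770 to 418299162), a protein-coding gene with a coding length of 282 bases. Neither the files nor the annotation used here gives a product for it or for any other of the 100 genes, so they are named by identifier and no role is stated. Its level was 82.3 and 145 TPM in 20 dpa replicates 2 and 3, against 0 in replicate 1. At 30 dpa it had 8.55, 31.7 and 5.06 TPM, and in the 18 libraries of 6 to 18 dpa it was listed at 0 in all but 18 dpa replicate 2, with 0.101 TPM. It was thus close to silent in all but 5 libraries.

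TRITD1Av1G143780, with rank 3, lies on chromosome 1A from 387196763 to 387197117 and has the same coding length. Its level was 243 and 477 TPM in 20 dpa replicates 2 and 3, against 0.572 TPM in replicate 1. At 30 dpa it had 14.6, 50.2 and 11.5 TPM, and it stayed at or under 1.86 TPM in all libraries of 6 to 18 dpa. Both genes were therefore lower in every 30 dpa library than in the pair of high 20 dpa libraries. With 20 dpa replicate 1 included, neither TRITD1Bv1G135990 nor TRITD1Av1G143780 was called lower at 30 than at 20 dpa (edgeR, adjusted p = 0.409 and 0.107).

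A pair on the chromosomes of group 6 was high at 30 dpa in replicate 2 alone. TRITD6Bv1G043510, with rank 2 (chromosome 6B from 125523250 to 125523654), had 68.7 and 65.8 TPM in 20 dpa replicates 2 and 3, against 0.0842 TPM in replicate 1, and 0.365, 95.2 and 0.624 TPM at 30 dpa. TRITD6Av1G030120, with rank 4 (chromosome 6A from 70947300 to 70947702), had 42.3 and 49.2 TPM in 20 dpa replicates 2 and 3, against 0 in replicate 1, and 1.55, 75.5 and 1.07 TPM at 30 dpa. For both, the highest library of all 24 was 30 dpa replicate 2, while the other 30 dpa libraries were at 1.55 TPM or less.

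The rest of the first 15 had rank ratios from 8.59 to 5.69 on the log2 scale. They were TRITD1Bv1G136050, TRITD3Bv1G009790, TRITD7Av1G173010, TRITD5Bv1G211630, TRITD1Av1G143760, TRITD0Uv1G113740, TRITD6Av1G000380, TRITD4Av1G256470, TRITD5Bv1G135640, TRITD4Av1G006440 and TRITD4Bv1G001190. Their 20 dpa medians ranged from 6.70 TPM for TRITD6Av1G000380 to 271 TPM for TRITD7Av1G173010. In 20 dpa replicate 1 they were at 0.437 TPM or less, except for TRITD7Av1G173010 with 7.20 TPM. Over all 100 genes, 47 had a highest median under 1 TPM among 13, 15 and 18 dpa, and 7 had all 3 of those medians listed at 0.

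The most abundant gene was TRITD2Bv1G218790 (chromosome 2B from 657342182 to 657342544, coding length 363 bases). It had 623 and 967 TPM in 20 dpa replicates 2 and 3, against 43.3 TPM in replicate 1. At 18 dpa it had 50.7, 42.5 and 24.7 TPM and at 30 dpa 316, 852 and 158 TPM. Replicate 1 of 20 dpa was thus at the level of 18 dpa, and all 3 libraries of 30 dpa were above it.

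TRITD5Bv1G214030 (chromosome 5B from 605117298 to 605119125) came next in level, with 798 and 313 TPM in 20 dpa replicates 2 and 3, against 96.8 TPM in replicate 1. This was the gene with the smallest gap, as replicate 1 held 31.0% of the lower of the other replicates. It was listed at 0 at 6 dpa and had 34.7, 50.4 and 52.2 TPM at 13 dpa. The genes with the next smallest gaps were TRITD1Av1G113230, TRITD7Av1G079890, TRITD4Bv1G105840 and TRITD5Av1G194160, in which replicate 1 held 24.8% to 26.5% of the lower of replicates 2 and 3.

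TRITD5Av1G217150 (chromosome 5A from 577693722 to 577695625) had 586 and 249 TPM in 20 dpa replicates 2 and 3, against 12.01 TPM in replicate 1, and 145, 518 and 87.2 TPM at 30 dpa. It was listed at 0 in all 6 dpa libraries and had 2.96, 24.7 and 37.9 TPM at 18 dpa. The 8 highest medians at 20 dpa also included those of TRITD7Av1G173010, TRITD1Av1G143780, TRITD4Bv1G049500, TRITD7Bv1G012380 and TRITD2Bv1G222110, the last of which had 185 and 158 TPM in 20 dpa replicates 2 and 3, against 27.0 TPM in replicate 1. Over all 100 genes the 20 dpa median ran from 5.02 to 623 TPM, with a median of 21.4 TPM, and 14 genes reached 100 TPM.

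**Figure D3:**
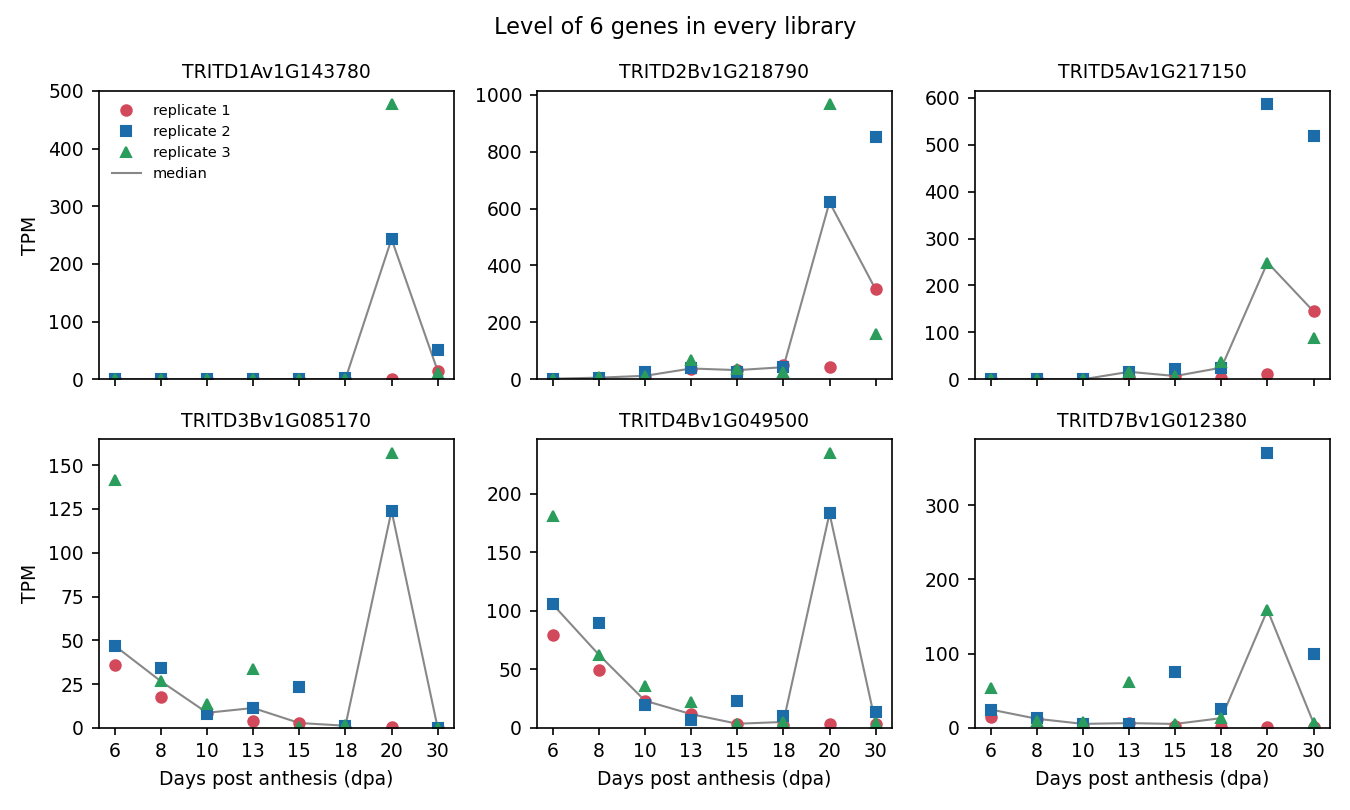
TPM (y axis, linear) of 6 of the genes in every library against dpa (x axis, evenly spaced), with a symbol per replicate and a line through the timepoint medians. Replicate 1 of 20 dpa lies near the bottom in all 6 panels, and TRITD3Bv1G085170 and TRITD4Bv1G049500 are also high at 6 dpa, at up to 142 and 181 TPM.

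The level at 30 dpa was compared with that at 6 dpa to ask whether the genes stayed above their starting level late in development. Neither timepoint enters the rank ratio, although the rule holds both medians below that of 20 dpa. Genes with their highest median at 6 or 30 dpa are thus left out of the 100 but stay among all genes tested. The shares of all genes given below are therefore not those of a like set. In edgeR's quasi-likelihood test over the 44240 genes that passed the minimum, a gene was called at a false discovery rate (FDR) of at most 0.05 and more than 1.5-fold. Of the 100 genes, 73 were called higher at 30 than at 6 dpa, beside 28.7% of all genes tested, and 4 were called lower, beside 29.1%. The median log2 fold change of the 100 genes was 6.55, beside -0.01 over all genes tested. For 21 of the 73 genes the 6 dpa libraries held 0 counts, and with these at their lower bound, from a floor of 3 counts over the 3 libraries, the median of the 100 was 6.52. TMM scaling moves the median of all genes, which is -1.76 without it and -1.10 in TPM, so changes are relative to this shift. In TPM, with 0.1 added to the mean of each timepoint, the median change of the 100 genes was 3.59 on the log2 scale, which understates the change of genes near 0 at 6 dpa. Without 30 dpa replicate 2, 64 genes were called higher, beside 27.6% of all genes, and 6 lower, beside 28.5%, and the median log2 fold change of the 100 genes was 4.92, beside -0.05 over all genes.

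The smallest adjusted p among the genes called higher was that of TRITD1Av1G113230 (chromosome 1A from 307327974 to 307330089). It had 7.39, 12.6 and 3.32 TPM at 30 dpa, against 0.0770, 0.0504 and 0.0931 TPM at 6 dpa, a log2 fold change of 7.95 with a standard error of 0.67 (edgeR, adjusted p = 4.68e-09). TRITD3Av1G021350 (chromosome 3A from 43998233 to 44002635) had 14.4, 24.9 and 10.6 TPM at 30 dpa, against at most 0.0204 TPM at 6 dpa, a log2 fold change of 12.17 with a standard error of 1.07 (edgeR, adjusted p = 7.52e-09). TRITD2Bv1G222110 (chromosome 2B from 668721354 to 668721665) had 41.4, 96.2 and 23.9 TPM at 30 dpa, against 0, 0.0821 and 0.975 TPM at 6 dpa, a log2 fold change of 9.05 with a standard error of 0.85 (edgeR, adjusted p = 1.94e-08). For none of the 3 genes did the timepoints overlap, and all were called with any 1 of the 24 libraries left out.

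Genes without a count at 6 dpa gave only a lower bound. The bounds hold on the TMM scale and use counts summed over the libraries of a timepoint, so 30 dpa replicate 2 can carry them. TRITD0Uv1G113740, with a bound of 844-fold, had 0.602, 39.1 and 0.652 TPM at 30 dpa. TRITD0Uv1G046900, which lies on no assembled chromosome, had 3.41, 13.7 and 2.78 TPM at 30 dpa and 0 in all 6 dpa libraries, at least 2872-fold higher (edgeR, adjusted p = 3.89e-08). TRITD7Av1G173010 had 235, 706 and 157 TPM at 30 dpa and 0 in all 6 dpa libraries, at least 12817-fold higher (edgeR, adjusted p = 1.07e-06). The bounds of the 21 genes ran from 85.7-fold to 117914-fold, the highest for TRITD5Bv1G214030. A further 7 genes held 1 to 3 counts at 6 dpa.

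The 73 genes were grouped by a call that used the 30 and 6 dpa libraries, so their levels there are a description. Within the 73 genes, the second-highest median fell at 30 dpa for 62 genes. Their level in 30 dpa replicate 2 had a median of 99.9% of the mean of 20 dpa replicates 2 and 3, and 36 genes exceeded that mean. Their summed level in the 3 replicates of 30 dpa was 1623, 4984 and 989 TPM, against 74.1, 66.3 and 92.4 TPM at 6 dpa. Left out 1 at a time, the 24 libraries kept 64 of the 73 calls in every fit. TRITD6Bv1G043510, with 0.365, 95.2 and 0.624 TPM at 30 dpa, was among the calls that were lost without 30 dpa replicate 2 (edgeR, adjusted p = 0.00568 with all libraries and 0.458 without that one).

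The 4 genes called lower at 30 than at 6 dpa were high at the start of the series, lower in its middle and high again in the pair of 20 dpa libraries. TRITD3Bv1G085170 (chromosome 3B from 242264351 to 242264725) had 0, 0.0575 and 0.0285 TPM at 30 dpa, against 36.1, 46.9 and 142 TPM at 6 dpa (edgeR, adjusted p = 0.000369), and no fold is given since it held 2 counts in all at 30 dpa. Its median at 18 dpa was 1.20 TPM, and it had 124 and 157 TPM in 20 dpa replicates 2 and 3, against 0.350 TPM in replicate 1. TRITD3Av1G073050 (chromosome 3A from 174935121 to 174935486) had 0.126, 0.424 and 0 TPM at 30 dpa, against 45.2, 59.9 and 149 TPM at 6 dpa, a log2 fold change of -7.35 with a standard error of 1.34 (edgeR, adjusted p = 8.14e-05). Both genes were at 0.424 TPM or less in every 30 dpa library.

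TRITD2Av1G265950 (chromosome 2A from 716953681 to 716955255) had 0, 0.129 and 0 TPM at 30 dpa, against 5.17, 4.36 and 8.43 TPM at 6 dpa, a log2 fold change of -6.03 with a standard error of 1.46 (edgeR, adjusted p = 0.00129). TRITD4Bv1G049500 (chromosome 4B from 141025591 to 141025959) had 3.22, 13.2 and 3.86 TPM at 30 dpa, against 79.2, 106 and 181 TPM at 6 dpa, a log2 fold change of -2.47 with a standard error of 0.89 (edgeR, adjusted p = 0.0206). The last call was lost when 6 dpa replicate 3, 30 dpa replicate 1 or 30 dpa replicate 3 was left out (adjusted p up to 0.0762), while the other 3 were kept with any 1 library left out. In 20 dpa replicates 2 and 3 TRITD4Bv1G049500 had 183 and 235 TPM, against 2.89 TPM in replicate 1, and all 4 genes had their second-highest median at 6 or 8 dpa. In 30 dpa replicate 2, where most of the 73 genes were high, the 4 genes stood at a median of 0.723% of the mean of 20 dpa replicates 2 and 3. This difference follows in part from the call that formed the groups, since the call used that library.

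The remaining 23 genes were not called between 30 and 6 dpa, and 15 of them had their second-highest median at 6 or 8 dpa. TRITD7Bv1G012380 (chromosome 7B from 32216018 to 32216693) was the most abundant of them. It had 371 and 159 TPM in 20 dpa replicates 2 and 3, against 1.46 TPM in replicate 1, and at 30 dpa it had 1.58, 99.0 and 6.28 TPM, against 15.1, 24.6 and 53.9 TPM at 6 dpa. These ranges overlap, and the log2 fold change of 1.59 had a standard error of 1.41. In this gene 1 library also stood out at 13 and 15 dpa, with 61.1 TPM in 13 dpa replicate 3 and 75.5 TPM in 15 dpa replicate 2, against at most 6.36 TPM in the other libraries of those timepoints.

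Over the 100 genes, 29 had a 6 dpa median of at least 1 TPM, and 22 of these had all medians of 13, 15 and 18 dpa below that of 6 dpa. The sum of their medians was 391 TPM at 6 dpa, 264 TPM at 8 dpa, 129 TPM at 10 dpa, 142 TPM at 13 dpa, 104.5 TPM at 15 dpa, 119 TPM at 18 dpa, 1860 TPM at 20 dpa and 501 TPM at 30 dpa. The early level was itself uneven, since 20 of the 29 genes were highest within 6 dpa in replicate 3. At the other end, 15 of the 100 genes had medians listed at 0 at 6, 8 and 10 dpa.

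Between 10 and 6 dpa the genes had no common direction. There were 17 genes called higher at 10 dpa, beside 17.6% of all genes tested, and 9 called lower, beside 14.6%, and the median log2 fold change was 0.00. Both counts are near or below the share of all genes. With no scaling beyond the library totals the split was 13 higher, beside 9.32% of all genes, and 13 lower, beside 23.3%. Of the 17 calls 11 were kept with any 1 library left out, and of the 9 calls 2 were. Without 10 dpa replicate 2 the counts were 11 higher, beside 14.4%, and 4 lower, beside 9.94%. The number called lower was 19, beside 15.6%, when 20 dpa replicate 1 was left out, and 5, beside 12.4%, when 10 dpa replicate 1 was.

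The most certain of the genes called higher at 10 dpa had accumulated by 30 dpa as well. TRITD1Av1G113230 had 0.751, 2.03 and 0.855 TPM at 10 dpa, against the 6 dpa levels given above, a log2 fold change of 4.14 with a standard error of 0.60 (edgeR, adjusted p = 2.76e-05). TRITD1Av1G180520 (chromosome 1A from 483205362 to 483208193) had 0.786, 8.996 and 3.78 TPM at 10 dpa, against 0.154, 0 and 0.129 TPM at 6 dpa, a log2 fold change of 5.70 with a standard error of 0.96 (edgeR, adjusted p = 0.000131). TRITD5Bv1G214030 had 0.510, 12.1 and 2.22 TPM at 10 dpa and 0 in all 6 dpa libraries (edgeR, adjusted p = 3.74e-05). TRITD2Bv1G222110 also passed, with a log2 fold change of 4.68 and a standard error of 0.83 (edgeR, adjusted p = 0.00022), and all 4 calls were kept with any 1 library left out.

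Among the genes called lower at 10 dpa, TRITD1Bv1G194760 (chromosome 1B from 596746074 to 596746920) had 0, 0.0148 and 0.0296 TPM at 10 dpa, against 0.283, 0.690 and 1.14 TPM at 6 dpa (edgeR, adjusted p = 0.000855), with 3 counts in all at 10 dpa. It had 6.45, 8.53 and 2.36 TPM at 30 dpa and was among the 73 genes higher there than at 6 dpa. TRITD2Av1G229780 (chromosome 2A from 630956689 to 630961500) had 3.31, 3.90 and 3.04 TPM at 10 dpa, against 12.1, 8.75 and 33.3 TPM at 6 dpa (edgeR, adjusted p = 0.0113), a call lost without 6 dpa replicate 3. TRITD6Av1G218540 (chromosome 6A from 598734553 to 598735170) had a log2 fold change of -2.07 with a standard error of 0.62 (edgeR, adjusted p = 0.0125), lost without 10 dpa replicate 2. TRITD6Bv1G171320 (chromosome 6B from 545038677 to 545040024) had a log2 fold change of -3.29 with a standard error of 1.00 (edgeR, adjusted p = 0.0146), lost without 6 dpa replicate 3 and without 10 dpa replicate 2.

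For the contrasts that the rule used, counts of calls are given as a description. Between 20 and 18 dpa 12 of the 100 genes were called higher, beside 0.208% of all genes tested. Without 20 dpa replicate 1 it was 88 genes, beside 6.16%. Between 30 and 20 dpa 10 genes were called lower, beside 7.16%, and leaving out 20 dpa replicate 1 gave 19 genes (beside 7.53%) and leaving out 30 dpa replicate 2 gave 17 (beside 6.54%). Leaving out 30 dpa replicate 1 or 3 gave 5 genes each, beside 5.2% and 5.29%. Both counts thus moved with single libraries, and the first fell to 0 without any 1 of 18 libraries.

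The same genes also set single libraries of other timepoints apart. In 30 dpa replicate 2, 77 of the 100 genes were at least 2-fold over both other replicates (on TPM + 0.1), beside 2.73% of the 10095 genes with a 20 dpa median of at least 5 TPM. In 15 dpa replicate 2 the number was 61, beside 1.75%. In 13 dpa replicate 3 it was 45, beside 9.34%. In 6 dpa replicate 3 it was 25, beside 2.30%, and in 18 dpa replicate 2 it was 18, beside 0.347%. In 10 dpa replicate 2 it was 16, beside 2.98%, and in 6 dpa replicate 1 it was 13, beside 1.48%. In the other libraries outside 20 dpa it was at most 8. The 10095 genes include the 100 and were chosen by their level at 20 dpa alone. Many of the 100 were near 0 early on, where a 2-fold gap can rest on few counts. At 6 dpa the median gene was at 0.228 to 0.268 TPM, and 27 to 43 genes per library were listed at 0. The rule favours this pattern outside 20 dpa too. It holds every other median below that of 20 dpa and ranks by low medians at 13, 15 and 18 dpa. A gene high in 2 replicates of such a timepoint was thus less likely to be taken, while the 10095 genes were not chosen so. Each of these is 1 library against 2, so no test is given, and what set the libraries apart was not tested.

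**Figure D4:**
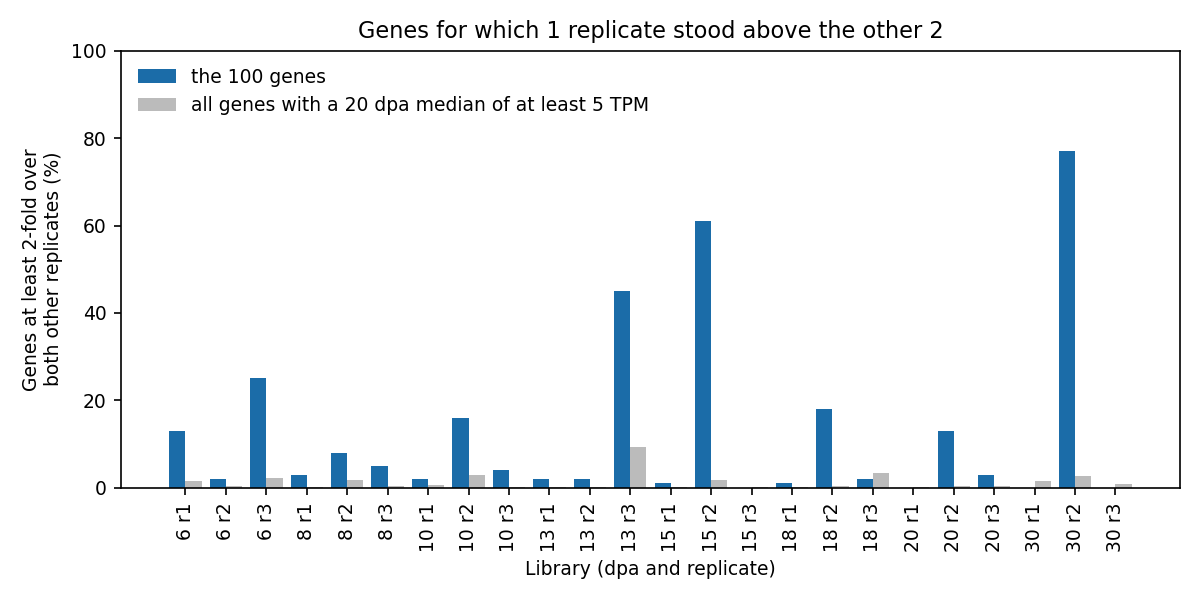
Percent of the 100 genes (blue) and of the 10095 genes with a 20 dpa median of at least 5 TPM (grey) that were at least 2-fold higher, on TPM + 0.1, in a library than in both other replicates of its timepoint (x axis, dpa and replicate). The blue bars stand at 77 for 30 dpa replicate 2, 61 for 15 dpa replicate 2 and 45 for 13 dpa replicate 3. The grey bars, which include the 100 genes, stay under 10.

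The sets of genes that stood out in these libraries overlapped as follows. Of the 45 genes of 13 dpa replicate 3, 84.4% were among the 61 of 15 dpa replicate 2, and they made up 62.3% of those 61, where the 61 are 61% of the 100. Of the 61 genes of 15 dpa replicate 2, 83.6% were among the 77 of 30 dpa replicate 2, and they made up 66.2% of those 77, where the 77 are 77% of the 100. No test of these overlaps is given. There were 31 genes in all 3 sets and 12 in none. The excess of 13 and 15 dpa was small beside the sums of 6635 and 5995 TPM in 20 dpa replicates 2 and 3. The 100 genes summed to 722 TPM in 13 dpa replicate 3, against 275 and 362 TPM in replicates 1 and 2. They summed to 680 TPM in 15 dpa replicate 2, against 260 and 239 TPM in replicates 1 and 3. The median gene had 2.47 TPM in 13 dpa replicate 3 and 2.49 TPM in 15 dpa replicate 2. It had 3.01 and 2.89 TPM in 30 dpa replicates 1 and 3. Of the 60 starch-related genes with at least 5 TPM at 20 dpa, 1 was 2-fold over both other replicates in 30 dpa replicate 2.

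Relative to the mean of 20 dpa replicates 2 and 3, the 100 genes had a median level of 11.9% in 30 dpa replicate 1, 69.8% in replicate 2 and 11.7% in replicate 3. In replicate 2, 38 genes exceeded that mean and 14 were under 10% of it. The 38 included TRITD7Av1G173010, with 706 TPM, and TRITD6Bv1G043510. Those under 10% included the 4 genes called lower at 30 than at 6 dpa and also TRITD4Bv1G001190, with 50.8 and 43.5 TPM in 20 dpa replicates 2 and 3 and 2.50 TPM in 30 dpa replicate 2, and TRITD4Av1G006440, with 13.96 and 12.9 TPM in 20 dpa replicates 2 and 3 and 1.16 TPM in 30 dpa replicate 2. The highest library of all 24 was 20 dpa replicate 2 for 40 genes, 20 dpa replicate 3 for 27, 30 dpa replicate 2 for 27, 6 dpa replicate 3 for 5 and 13 dpa replicate 3 for 1.

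Position was not used by the rule. Coding length enters it through TPM, since a short transcript reaches 5 TPM with fewer counts. The sets compared below passed the same minimum, but the 100 genes were also picked by the rank ratio. Whether that ratio favours short transcripts was not tested. Of the 100 genes, 96 are placed on the 14 chromosomes of the Svevo v1 assembly, all annotated as protein coding, and 4 are on unplaced sequence. The number per chromosome ran from 3 on 7A and on 7B to 11 on 3A and on 5B. Exon, intron and UTR structure was not used here. The median coding length was 472.5 bases, beside 867 bases for the 10095 genes with a 20 dpa median of at least 5 TPM and 876 bases for the 355 genes that qualified but ranked lower. A coding length under 600 bases was found for 66 of the 100 genes, beside 32.0% and 30.1% in those sets.

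Neighbours occurred among the genes, as 17 had another of the 100 within 200 kb, in 8 groups. The share expected among other genes was not computed, so no clustering is read from this count. The largest group was on chromosome 2B from 669123520 to 669266977 and held 3 of the 5 annotated genes in that span. TRITD2Bv1G222340 had 26.3 and 18.8 TPM in 20 dpa replicates 2 and 3, against 1.03 TPM in replicate 1. TRITD2Bv1G222350 had 58.8 and 22.1 TPM, against 0 in replicate 1, and TRITD2Bv1G222410 had 8.78 and 5.36 TPM, against 0.232 TPM in replicate 1. The 2 genes between them did not share the pattern, since TRITD2Bv1G222380 had 2.28 and 2.36 TPM, against 1.56 TPM in replicate 1, and TRITD2Bv1G222390 had 6.69 and 6.47 TPM, against 5.63 TPM in replicate 1.

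On chromosome 1B, TRITD1Bv1G135900 and the first-ranked TRITD1Bv1G135990 lie in a span from 418162076 to 418299162. TRITD1Bv1G135900 had 24.1 and 20.1 TPM in 20 dpa replicates 2 and 3, against 0.556 TPM in replicate 1. The gene between them, TRITD1Bv1G135980, had 4.53 and 5.41 TPM, against 0 in replicate 1, and missed the minimum of 5 TPM with its median. All 3 genes of the span were thus higher in replicates 2 and 3 than in replicate 1.

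On chromosome 1A, TRITD1Av1G143760 and TRITD1Av1G143780 lie in a span from 387171305 to 387197117 with no annotated gene between them. TRITD1Av1G143760 had 11.1 and 27.1 TPM in 20 dpa replicates 2 and 3, against 0 in replicate 1. On chromosome 3B, TRITD3Bv1G009790 and TRITD3Bv1G009810 lie in a span from 20420637 to 20430194, and had 18.8 and 21.4 TPM and 14.6 and 6.50 TPM in 20 dpa replicates 2 and 3, against 0.0609 and 0.584 TPM in replicate 1. In each of these groups all the neighbours were low in 20 dpa replicate 1. Reads that near-identical neighbours share could have been divided between them.

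There were 6 pairs of 1 gene on an A and 1 on the B chromosome of the same number with equal coding length, among them TRITD1Av1G143780 with TRITD1Bv1G135990 (282 bases) and TRITD6Av1G030120 with TRITD6Bv1G043510 (306 bases). Whether the genes of a pair are copies of each other was not established here, and the number of such pairs among other genes was not computed. The other 4 pairs were TRITD2Av1G223070 with TRITD2Bv1G222110, TRITD2Av1G259820 with TRITD2Bv1G222410, TRITD2Av1G259630 with TRITD2Bv1G222350 and TRITD3Av1G284670 with TRITD3Bv1G280340. Levels within a pair could differ widely, as TRITD2Av1G223070 had 6.996 and 10.6 TPM in 20 dpa replicates 2 and 3 where TRITD2Bv1G222110 had 185 and 158 TPM. These genes start at 611269542 on 2A and 668721354 on 2B. The other pairs of 2A and 2B start at 701571130 and 701903571 on 2A and at 669190641 and 669265731 on 2B. Whether TRITD2Av1G223070 and TRITD2Bv1G222110 share more than their length was not tested.

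The cut at 100 genes fell in a smooth sequence of rank ratios. The last genes taken were TRITD4Bv1G105840, TRITD5Av1G251400 and TRITD1Av1G180520, with log2 ratios of 2.13, 2.13 and 2.11. The first left out were TRITD5Av1G201490, TRITD4Av1G136060 and TRITD6Av1G181790, with log2 ratios of 2.07, 2.02 and 2.01. All 6 were lower in 20 dpa replicate 1 than in the other replicates, for instance TRITD5Av1G201490 with 29.3 and 32.8 TPM in replicates 2 and 3, against 8.04 TPM in replicate 1. The 6 starch-related genes set aside by the rule had log2 ratios of 0.02 to 0.24 and would not have ranked among the first 100.

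Membership depended on single libraries and on the settings of the rule. With the rule applied again, 82 of the 100 genes were found without 20 dpa replicate 1, 52 without replicate 2 and 63 without replicate 3. With 20 dpa replicate 1 as the only library of its timepoint, 0 of the 100 were found among the first 100 of the 361 genes that then qualified. Leaving out 30 dpa replicate 1 kept 75 and leaving out 30 dpa replicate 3 kept 70, and leaving out any 1 of the other libraries outside 20 dpa kept 92 or more. With TMM-scaled CPM in place of TPM 46 were found, and with a minimum of 1 TPM 49.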

How the data were processed

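Endosperm RNA of 24 libraries (8 timepoints, 3 replicates each) was measured by RNA-seq. The authors pseudoaligned the reads to the canonical Svevo v1 transcripts with kallisto (version 0.46.1 in the submitters' notes) and deposited estimated counts, unscaled between libraries. The deposited TPM values, made by the authors in the same runs, allow for effective transcript length and share a constant total per library, so a few abundant transcripts lower the TPM of all others. Each canonical transcript stood for its gene. The members, lists, tests and alternatives were chosen with earlier results of these data known.

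The rule was applied to deposited TPM. Estimated counts, of which 58.1% of those above 0 were not whole, were rounded, and a minimum of 10 counts in no fewer than 3 libraries left 44240 genes. These were tested with edgeR 4.0.16 under R 4.3.3 (quasi-likelihood test, TMM, timepoint as a factor, all libraries in 1 fit). P-values were adjusted over all genes by Benjamini and Hochberg. Standard errors were back-calculated, as the absolute log2 fold change divided by the square root of the F statistic. Totals of 56180606 to 115800050 counts set the depth, and 0 counts in a library allow up to 3. P-values measure the spread between pools of grains, and replicates of a timepoint are stated to come from separate plants. Some libraries of different timepoints shared a plant, and the tests took no account of it since the labels do not say which. Replicate numbers were not taken as pairs: correlations of same-numbered deviations came to 0.01, -0.11 and -0.02 for 10 against 6 dpa, for 30 against 6 dpa to 0.14, -0.06 and -0.00, for 20 against 18 dpa to 0.25, 0.11 and 0.09 and for 30 against 20 dpa to 0.26, 0.32 and -0.12, so in no comparison were all 3 over 0.1.

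Genes named were the 15 ranked first, the 8 highest at 20 dpa, the 5 with the highest ratio of 20 dpa replicate 1 to the other replicates, the 4 with the smallest adjusted p per direction of each tested contrast, neighbours within 200 kb (up to 4 groups), A and B pairs and the 3 genes on either side of the limit. Pairs are by equal coding length, a choice made after the data were seen, since sequences were not used here. TRITD5Av1G217150 was among the 8, and TRITD2Bv1G222380, TRITD2Bv1G222390 and TRITD1Bv1G135980 were named as the genes between neighbours. Positions and coding lengths come from the RefSeq table of Svevo.v1, to which 63993 of 66559 transcripts matched, and the files. Lists by product name, promoter motifs and homeologs by sequence were not analysed here. Alternatives were DESeq2 1.42.0, its size factors, no scaling, no filter, a larger fold, the replicate block, fewer libraries and each library left out. Scripts were tested on simulated data. Tables and figures used Python 3.11.15, pandas 2.3.3 and matplotlib 3.10.9.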

Additional observations from a re-analysis of the deposited data

How the results depend on the processing

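Calls of 30 against 6 dpa were the steadiest. The number of the 100 genes called higher ranged from 64 to 76 with 1 library left out at a time, and was 59 with no scaling beyond the library totals (beside 8.23% of all genes) and 59 with 6 dpa replicate 3 and 30 dpa replicate 2 left out together, an alternative chosen after seeing the data. The number called lower ranged from 3 to 6 and was 10 with no scaling (beside 67.1%). Between 10 and 6 dpa the numbers ranged from 11 to 20 higher and from 4 to 19 lower with 1 library left out, and 21 were lower (beside 16.6%) with only the libraries of the timepoints compared. Between 20 and 18 dpa the number called higher ranged from 0 to 88 with 1 library left out. Omitting 20 dpa replicate 1 gave 88, omitting 30 dpa replicate 2 gave 36, and omitting any 1 of 18 libraries gave 0. It was 0 with no scaling (beside 0.00226% of all genes), 34 with no filter (0.549%), 0 with only the libraries compared (0%), 56 with DESeq2 (3.58%) and 20 with the 2 libraries left out together (0.346%). Between 30 and 20 dpa the number called lower ranged from 5 to 19, and it was 5 if 30 dpa replicate 1 or 3 was left out, 17 without 30 dpa replicate 2 and 19 in the absence of 20 dpa replicate 1. It was 18 with no scaling (beside 29.3%), 2 with only the libraries compared (1.85%) and 16 with the 2 libraries left out together (6.48%). With the replicate block the numbers were 20 higher and 12 lower between 10 and 6 dpa, 70 higher and 5 lower between 30 and 6 dpa, 0 higher (beside 0.00226%) between 20 and 18 dpa and 12 lower between 30 and 20 dpa, and in no comparison did every library correlate best with its own number. The rule applied again found 64 of the 100 genes with means in place of medians, 49 with a minimum of 1 TPM, 46 with TMM-scaled CPM, 0 with 20 dpa replicate 1 alone, and 52 to 100 with 1 library left out. Neighbours within 50 kb numbered 10. All 100 genes were higher in 20 dpa replicates 2 and 3 than in replicate 1 at 2-fold under each scaling and pseudocount tried, and 95 at 4-fold. The cause was not tested for any of these. The alternatives on homeolog partners were not run. At this depth a level near 0 in 1 library is limited by counting, and 3 replicates give wide standard errors for genes with few counts at 6 dpa.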
